A study of Rattus norvegicus with 9 samples.

Results

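The 10 genes described here carry fatty acids into the liver cell and activate them. They are Cd36, Fabp1, Slc27a1, Slc27a2, Slc27a4, Acsl1, Acsl3, Acsl4, Acsl5 and Acsf2. They were chosen by function, with earlier results of these data known. The rule that selected them names no property of the measurements beyond being rows of both deposited tables. All 10 were found among the 15565 genes in both tables, and all 10 passed the filter on low counts, which left 12041 genes.

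RNA was sequenced from livers of male rats (strain SD in the labels), in 9 libraries. The SCL-treated group (3 libraries) received SCL, which stands for the plant Smilax china L. in the labels, and its tissue is labelled non-alcoholic fatty liver. What these rats were fed is not given in the labels, and the series' design text writes SCS for what is taken here to be the same group. The high-fat diet group (3 libraries) ate that diet for 8 weeks, was the disease model, and carries the same tissue label. The normal diet group (3 libraries) is labelled normal control liver, and its source names say wt. The source names of the high-fat diet libraries say model, and those of the SCL-treated libraries say treated with SCL. The age of the rats, the dose of SCL and whether livers were pooled were not stated in the labels. Only the replicate numbers and the numbered sample titles speak for separate animals, so the spread between libraries that the p-values measure may be technical. The title of high-fat diet replicate 1 carries a group code unlike that of the other high-fat diet libraries. What this difference means is not stated. Values of a group are listed in the order of replicates 1, 2 and 3.

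Libraries held between 12413774 and 15521648 reads. Reads from the mitochondrial genome made up 7.04% to 49.0% of SCL-treated libraries, 4.90% to 44.1% of high-fat diet libraries and 3.85% to 11.2% of normal diet libraries. The libraries over 40% were SCL-treated replicate 2 (49.0%) and high-fat diet replicate 3 (44.1%). Hepatocyte markers were present in every library, with Alb, the gene of serum albumin, at 47034 CPM or more in SCL-treated livers, at 45524 CPM or more in high-fat diet livers and at 91236 CPM or more in normal diet livers. The lowest SCL-treated and high-fat diet values of Alb were those of the libraries over 40%. CPM are read counts scaled to the library size, here after TMM, a correction for a few genes that take many reads.

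Long-chain fatty acids reach the hepatocyte from blood. CD36, a scavenger receptor, and the fatty acid transport proteins of the Slc27 family help them across the plasma membrane, and FABP1 binds them in the cytosol. Acyl-CoA synthetases join them to coenzyme A, which traps them in the cell and is the step before oxidation, triglyceride synthesis or membrane lipids. Several of these genes, Fabp1, Acsl1 and Cd36 among them, are known targets of PPAR receptors in rodents, which bind repeats of a short sequence as partners of RXR.

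To show how differently these genes begin, the 250 bases before the start of 3 of them are printed 5′ to 3′, from RefSeq (assembly GRCr8). A window was found for 9 of the 10 genes. Fabp1 and Slc27a2 are among the most abundant of the 10, and Acsl3 is a low-level synthetase whose high-fat diet values all lay below the normal diet ones. The Fabp1 window is chr4:104749090-104749339 on the + strand, the Slc27a2 window is chr3:134257851-134258100 on the + strand, and the Acsl3 window is chr9:87563351-87563600 on the + strand. The start used for Fabp1 lies 5038 bases inside the outer end of the annotated gene. Capitals mark a direct repeat and a TATAAA box.
Fabp1: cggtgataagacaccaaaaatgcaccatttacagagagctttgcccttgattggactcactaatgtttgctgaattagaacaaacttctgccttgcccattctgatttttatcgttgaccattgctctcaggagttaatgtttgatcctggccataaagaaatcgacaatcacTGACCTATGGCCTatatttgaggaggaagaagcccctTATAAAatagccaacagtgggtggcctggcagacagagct
Slc27a2: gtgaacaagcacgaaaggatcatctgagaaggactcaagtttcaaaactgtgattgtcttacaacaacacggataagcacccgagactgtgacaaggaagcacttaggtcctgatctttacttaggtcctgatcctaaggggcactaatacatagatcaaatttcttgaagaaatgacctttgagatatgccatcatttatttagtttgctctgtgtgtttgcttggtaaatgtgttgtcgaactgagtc
Acsl3: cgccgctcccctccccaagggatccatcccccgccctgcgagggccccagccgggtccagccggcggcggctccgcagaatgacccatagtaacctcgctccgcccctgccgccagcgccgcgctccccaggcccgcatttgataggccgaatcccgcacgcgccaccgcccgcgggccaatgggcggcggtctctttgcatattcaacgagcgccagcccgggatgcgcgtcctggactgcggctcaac

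The repeat searched was AGGNCA, with N for any base, followed by any 1 base and AGGNCA again, on both strands. It is a form that PPAR and RXR bind. It was found in 1 of the 9 windows, that of Fabp1, where it reads TGACCTATGGCCT on the strand shown and begins 77 bases before the start. Of 33469 rat windows of the same length 0.368% held it. TATAAA on either strand was found in 3 of the 9 windows (Cd36, Fabp1 and Acsl5), against 12.9% of all windows, and in Fabp1 it begins 40 bases before the start. CCAAT was found in 4 of the 9, against 34% of all windows. The 3 printed windows differ in CG pairs, with 3 in Fabp1, 4 in Slc27a2 and 31 in Acsl3, where the median of all windows was 5. Acsl4 had 28 and Acsl1 had 1. The starts used for Cd36, Acsl1, Slc27a1 and Acsl4 lie 37494, 21718, 1108 and 155 bases inside the outer end of the annotated gene. What was found or missed in a window holds for the start used, and other starts were not searched. The motifs found are matches of letters, and binding was not measured.

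Levels of different genes were compared on the authors' FPKM scale, which divides reads by gene length. Fabp1 was the highest of the 10 in all 9 libraries, between 1690 and 5885 FPKM. Slc27a2, between 441 and 756 FPKM, and Acsl1, between 279 and 669 FPKM, took the next places in every library. These 3 genes made up between 95.3% and 98.7% of the summed FPKM of the 10. Acsl4 (38.2 to 65.4 FPKM) and Acsl5 (15.7 to 90.9 FPKM) came next in every library, in either order. The other 5 genes ranged up to 19.0 FPKM, the highest value of Acsf2. Cd36 was the lowest in 8 of 9 libraries, at 0.335 to 1.97 FPKM. Its FPKM rest on a gene length of 9993 bases implied by the deposited values, against 486 bases for Fabp1. Its exact place among the low genes therefore depends on that annotated length. Before division by length Cd36 was also low, at 43 to 305 reads per library, against 10195 to 43492 reads for Fabp1.

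Slc27a2 and Acsl1 changed places between libraries. Slc27a2 encodes FATP2, a transporter that also activates very long-chain fatty acids, and Acsl1 is the main long-chain synthetase of liver. The ratio of Slc27a2 to Acsl1 FPKM was 1.19, 2.71 and 1.32 in SCL-treated livers, and 0.758, 1.61 and 2.21 in high-fat livers. In normal diet livers it was 0.726, 0.807 and 1.17. Slc27a2 was thus above Acsl1 in 6 of the 9 libraries, and the ratio was highest in the 2 libraries over 40% mitochondrial.

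**Figure D1:**
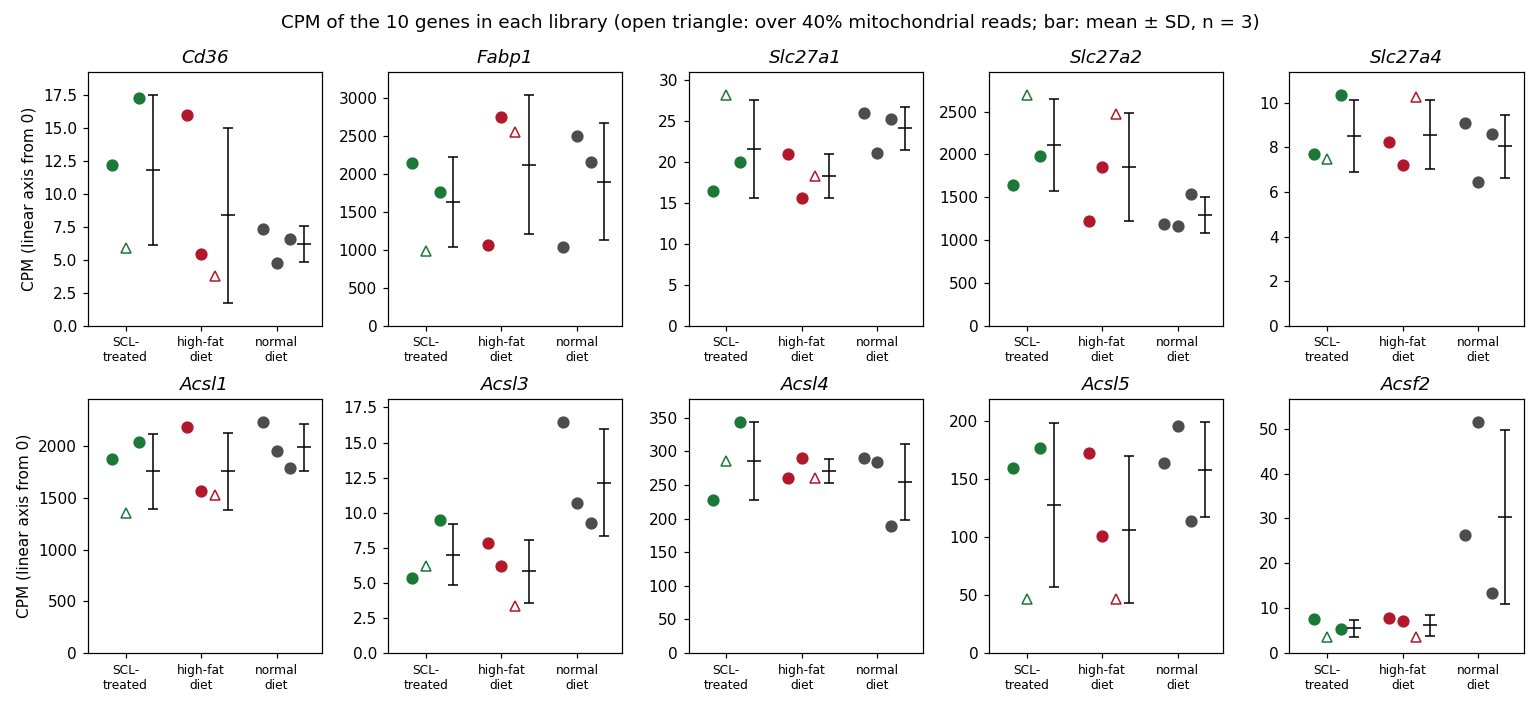
CPM of each of the 10 genes (vertical axes, linear from 0) in the SCL-treated, high-fat diet and normal diet libraries; each point is 1 library, bars are mean ± SD (n = 3) and open triangles are the 2 libraries over 40% mitochondrial. Acsf2 stood at 13.4 CPM or more in the normal diet libraries and at 7.84 CPM or less in the other 6.

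The first comparison asked how the genes stood after the high-fat diet. Acsf2, a mitochondrial synthetase of medium-chain fatty acids, had by far the lowest ratio. Its levels were 7.84, 7.22 and 3.47 CPM in high-fat livers, and 26.3, 51.4 and 13.4 CPM in normal diet livers. All high-fat diet libraries lay below all normal diet libraries. The normal diet libraries themselves spread widely, with a mean of 30.4 ± 19.4 CPM (SD, n = 3) against 6.18 ± 2.36 CPM (SD, n = 3) on the high-fat diet.

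The log2 fold change of Acsf2, high-fat over normal diet, was -2.29 (SE 0.51, n = 3 against 3). Its edgeR adjusted p over all genes was 0.61, with an unadjusted p of 0.0011, so it did not pass. DESeq2 called it, at -2.30 (adjusted p = 0.0098), and limma-voom with quality weights did not, at -2.62 (adjusted p = 0.062). The authors' deposited table, which gives normal over high-fat diet, has a log2 fold change of 2.30 and an adjusted p of 0.013. Whether Acsf2 counts as changed therefore depends on the test. Without normal diet replicate 2, its highest library, it stood at -1.68.

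Acsf2 was also lowest in the libraries with many mitochondrial reads. It was at 3.69 CPM in SCL-treated replicate 2 and 3.47 CPM in high-fat diet replicate 3, against 5.26 to 51.4 CPM in the other 7 libraries. Fitted beside the mitochondrial share, its log2 fold change was -1.64 (edgeR adjusted p = 0.59), and without the 2 libraries over 40% it was -2.02 (edgeR adjusted p = 0.88). The summed level of the 12 hepatocyte markers was 156349, 160474 and 77870 CPM in high-fat livers. In normal diet livers it was 197951, 162526 and 201283 CPM. The lowest high-fat diet sum was that of the library over 40% mitochondrial. The part of this level in the result was not tested. In bulk liver, fewer cells of a type and less RNA per cell cannot be told apart.

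Acsl3, a synthetase of the endoplasmic reticulum and lipid droplets, was the next lowest. It had 7.84, 6.20 and 3.39 CPM in high-fat livers, against 16.4, 10.7 and 9.25 CPM in normal diet livers. The groups did not overlap, but the closest libraries were 7.84 and 9.25 CPM. The log2 fold change was -1.06 (SE 0.39, edgeR adjusted p = 0.91, unadjusted p = 0.022), and it did not pass by edgeR, DESeq2 (adjusted p = 0.64) or limma-voom (adjusted p = 0.096). Without the libraries over 40% mitochondrial the log2 fold change was -0.79. These values rest on 39 to 150 reads per high-fat diet library and 128 to 270 reads per normal diet library.

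Slc27a1 encodes FATP1, a transport protein best known from muscle and fat. It had 20.9, 15.5 and 18.2 CPM in high-fat livers, and 26.0, 21.1 and 25.2 CPM in normal diet livers. The groups did not overlap, by the narrow step of 20.9 to 21.1 CPM. The log2 fold change was -0.40 (SE 0.27, edgeR adjusted p = 0.91), and it did not pass.

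The remaining 7 genes overlapped between high-fat and normal diet. Acsl5, a synthetase of the endoplasmic reticulum and the outer mitochondrial membrane, stood at 172.4, 100.5 and 46.1 CPM in high-fat livers, and at 164.1, 195.3 and 114.0 CPM in normal diet livers. Its log2 fold change was -0.57 (SE 0.54). It was -0.21 without the libraries over 40% mitochondrial, and it turned to 0.18 with the mitochondrial share as covariate. Slc27a2 stood at 1219, 1854 and 2477 CPM in high-fat livers, and at 1194, 1160 and 1538 CPM in normal diet livers. Its log2 fold change was 0.51 (SE 0.38), and it was 0.24 without those libraries and 0.081 with the covariate. Slc27a2 was thus highest, and Acsl5 lowest, in the high-fat diet library with the most mitochondrial reads.

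Cd36 had 15.9, 5.42 and 3.74 CPM in high-fat livers, and 7.31, 4.72 and 6.58 CPM in normal diet livers. A single high-fat diet library was above the normal diet range and another was below it. The log2 fold change of 0.44 (SE 0.55) turned to -0.44 without high-fat diet replicate 1. Cd36 is also made by endothelium and macrophages. Their summed markers were 218 to 292 CPM on the high-fat diet against 305 to 361 CPM on the normal diet for sinusoidal endothelium (9 measured), and 374 to 735 CPM against 622 to 795 CPM for Kupffer cells and macrophages (12 measured). None of these markers was at 0 in all libraries, and their part in the Cd36 values was not tested.

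Fabp1 had 1071, 2750 and 2556 CPM in high-fat livers, and 1039, 2505 and 2163 CPM in normal diet livers. The first library of each group was the lowest and the others stood at 2163 CPM or more, and the log2 fold change was 0.16 (SE 0.49). It turned to -0.084 without high-fat diet replicate 2, to -0.0011 without high-fat diet replicate 3 and to -0.14 without normal diet replicate 1. Acsl1 stood at -0.18 (SE 0.34). Acsl4, which prefers arachidonic acid, stood at 0.090 (SE 0.29), and Slc27a4, the transport protein FATP4, at 0.092 (SE 0.29).

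**Figure D2:**
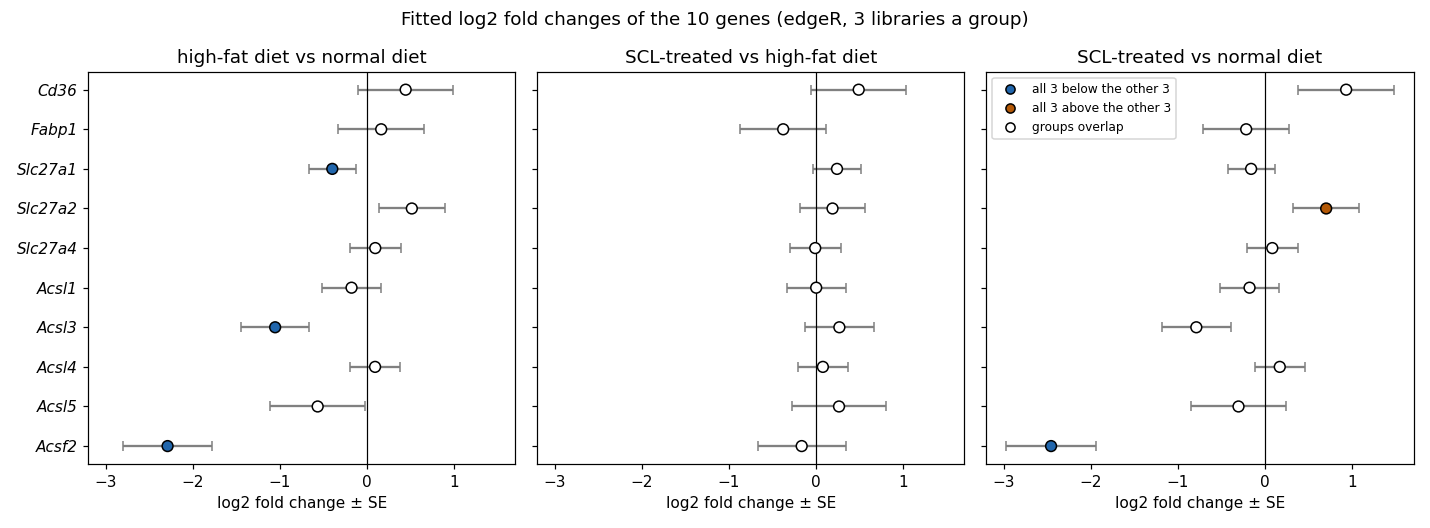
Log2 fold changes ± SE (horizontal axes) of the 10 genes from 1 edgeR fit in each of the 3 comparisons (n = 3 against 3); filled points mark genes whose groups do not overlap. Acsf2 lies at -2.29 for high-fat against normal diet and -2.46 for SCL-treated against normal diet, and at -0.17 for SCL-treated against high-fat diet.

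In all, edgeR called 0 of the 10 genes between high-fat and normal diet, where it called 0.0083% of all genes tested. At an unadjusted p under 0.05 there were 2 of 10, Acsf2 and Acsl3, against 4.32% of all genes. Both were lower on the high-fat diet, as were 1.55% of all genes, and 0 of 10 were higher, against 2.77%. DESeq2 called 1 of 10, against 0.416%, and limma-voom 0 of 10, against 0.216%. Groups did not overlap for 3 of 10, against 10.6% of all genes. All 3 were lower on the high-fat diet, against 5.27%, and 0 were higher, against 5.33%. Of the 10 log2 fold changes 5 were positive and 5 negative, with a median of -0.045, beside 0.034 over all genes tested. That median was -0.41 without high-fat diet replicate 1.

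The second comparison asked how the genes stood with SCL relative to the high-fat diet. No gene passed, and the groups overlapped for each of the 10. Cd36 had 12.2, 5.92 and 17.3 CPM in SCL-treated livers, against 15.9, 5.42 and 3.74 CPM in high-fat livers. Its log2 fold change of 0.49 (SE 0.54) was the highest of the 10 estimates and did not pass (edgeR adjusted p = 1.00). In each group its lowest library was the one over 40% mitochondrial, and without these it was 0.45. It was 1.37 without high-fat diet replicate 1, 0.13 without high-fat diet replicate 3 and 0.099 without SCL-treated replicate 3. Limma-voom with quality weights gave 1.17 (adjusted p = 0.64), which did not pass. Fabp1 had 2148, 989 and 1766 CPM in SCL-treated livers, against 1071, 2750 and 2556 CPM in high-fat livers, a log2 fold change of -0.38 (SE 0.49).

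Acsf2 had 7.55, 3.69 and 5.26 CPM in SCL-treated livers, within about the same range as in high-fat livers (7.84, 7.22 and 3.47 CPM). The log2 fold change was -0.17 (SE 0.50). Acsl3 had 5.38, 6.21 and 9.48 CPM in SCL-treated livers, against 7.84, 6.20 and 3.39 CPM in high-fat livers, a log2 fold change of 0.27 (SE 0.39). The other 6 genes lay between -0.012 (SE 0.29) for Slc27a4 and 0.26 (SE 0.54) for Acsl5, with Acsl1 at -0.00072 (SE 0.34).

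By edgeR 0 of the 10 genes were called between SCL-treated and high-fat diet livers, as were 0% of all genes. At an unadjusted p under 0.05 there were 0 of 10, against 1.95% (0.615% higher and 1.34% lower). DESeq2 called 0 of 10, against 0.00832%, and limma-voom 0 of 10, against 0%. Groups overlapped for all 10, and did not overlap for 4.78% of all genes (2.36% higher and 2.43% lower). The median log2 fold change of the 10 was 0.13, beside -0.031 over all genes. It was -0.068 without SCL-treated replicate 3, and -0.035 with library totals as the only scaling. That scaling moved the median of all genes to -0.19, so that the 10 stood 0.16 above it under either scaling.

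The third comparison set SCL-treated against normal diet livers. It shares its SCL-treated and its normal diet libraries with the other comparisons, so its values are not a separate test of them. Acsf2 averaged 5.50 ± 1.94 CPM with SCL and 30.4 ± 19.4 CPM on the normal diet (SD, n = 3 each), and all 3 SCL-treated libraries lay below all normal diet libraries. Its log2 fold change was -2.46 (SE 0.52, edgeR adjusted p = 0.51, unadjusted p = 6.8e-04). DESeq2 called it at -2.47 (adjusted p = 0.0042), and so did limma-voom with quality weights at -2.51 (adjusted p = 0.037). Fitted beside the mitochondrial share it stood at -1.79 (edgeR adjusted p = 0.40), without the libraries over 40% mitochondrial at -2.25 (edgeR adjusted p = 0.64), and without normal diet replicate 2 at -1.85. Summed hepatocyte markers were 166269, 80794 and 243499 CPM with SCL, the lowest in the library over 40% mitochondrial, and 162526 to 201283 CPM on the normal diet.

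**Figure D3:**
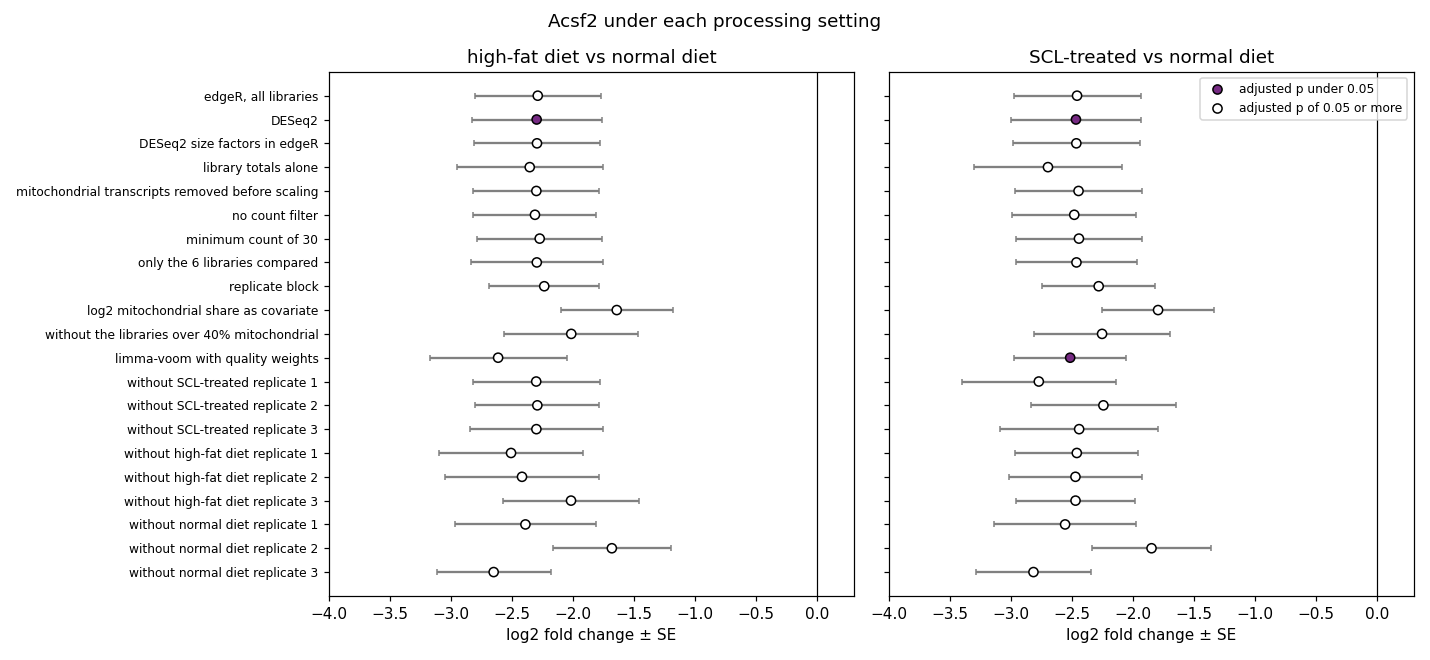
Log2 fold change ± SE of Acsf2 (horizontal axes) under each processing setting (rows), for high-fat against normal diet (left) and SCL-treated against normal diet (right); filled points have an adjusted p under 0.05 over all genes. Every value plotted is negative, between -2.65 and -1.64 on the left and between -2.81 and -1.79 on the right, and 3 are filled.

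Slc27a2 had 1642, 2694 and 1979 CPM in SCL-treated livers, and 1194, 1160 and 1538 CPM in normal diet livers. The groups did not overlap, with 1642 and 1538 CPM as the closest libraries. The log2 fold change was 0.70 (SE 0.38, edgeR adjusted p = 0.66), and it did not pass. For Slc27a2 it was 0.47 without the libraries over 40% mitochondrial and 0.32 with the mitochondrial share as covariate. Cd36 stood at 0.93 (SE 0.55) and at 1.48 with that covariate (edgeR adjusted p = 0.32), Acsl3 at -0.79 (SE 0.39) and Acsl5 at -0.31 (SE 0.54), and none of them passed. Acsl5 turned to 0.090 without SCL-treated replicate 2, to 0.080 without the libraries over 40% and to 0.40 with the mitochondrial share as covariate.

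By edgeR 0 of the 10 genes were called between SCL-treated and normal diet livers, against 0.0083% of all genes. At an unadjusted p under 0.05 there was 1 of 10, Acsf2, against 6.88%. It was lower, as were 3.55% of all genes, and 0 of 10 were higher, against 3.32%. DESeq2 called 1 of 10, against 0.333%, and limma-voom 1 of 10, against 1.26%. Groups did not overlap for 2 of 10, against 15.3% of all genes. Slc27a2 was the 1 higher, against 7.47%, and Acsf2 the 1 lower, against 7.81%. The median log2 fold change was -0.17, beside 0.026 over all genes, and it was 0.065 without SCL-treated replicate 2.

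Across the 9 libraries the genes did not move as a block. Acsf2 spanned 14.8-fold between its lowest and highest CPM, Acsl3 4.86-fold, Cd36 4.63-fold and Acsl5 4.23-fold. Slc27a4 spanned 1.60-fold and Acsl1 1.65-fold. In each of the 2 libraries over 40% mitochondrial, 7 of the 10 genes lay below their own 9-library median and 3 above it. Acsl1, Acsl5 and Acsf2 were lower in both of them than in any other library, and Slc27a2 was higher in both than in any other. Acsl5 was at 46.4 CPM in SCL-treated replicate 2 and 46.1 CPM in high-fat diet replicate 3, against 100.5 to 195.3 CPM in the other 7 libraries. Slc27a2 was at 2694 and 2477 CPM in the same 2 libraries, against 1160 to 1979 CPM in the other 7. The part of the mitochondrial share in these values was not tested beyond the covariate fits given here.

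**Figure D4:**
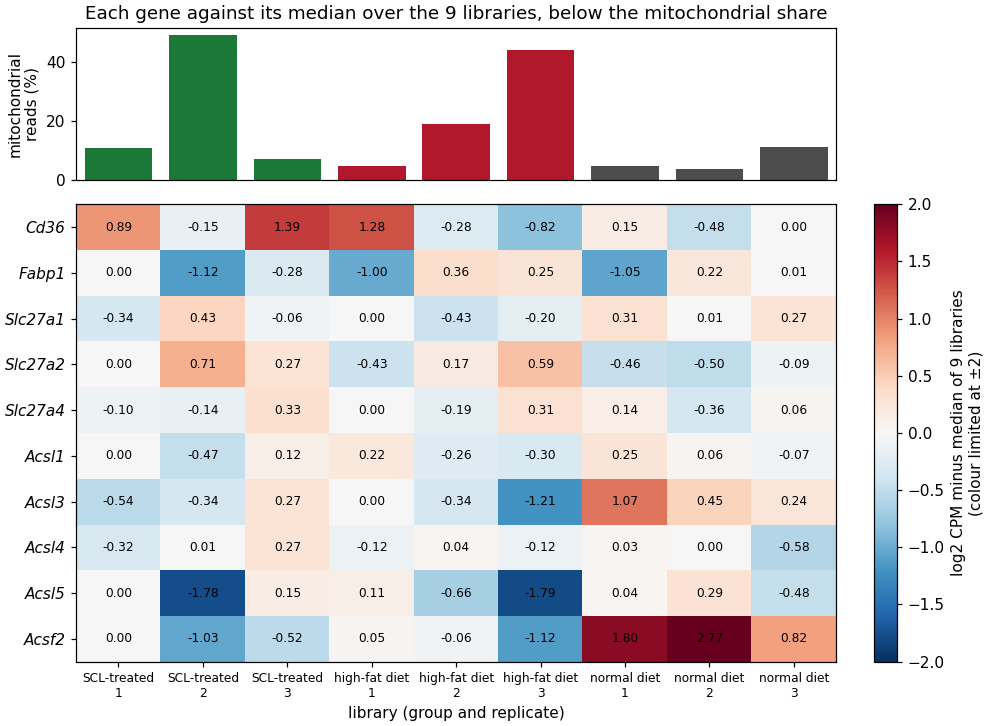
Top, percent of reads from the mitochondrial genome in each library; bottom, log2 CPM of each gene minus its median over the 9 libraries (colour and printed value). Acsl5 is lowest in SCL-treated replicate 2 (-1.78) and high-fat diet replicate 3 (-1.79), and Acsf2 is above its median by 0.82 or more in each normal diet library.

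Shares within a gene family do not depend on how libraries are scaled. Of the summed FPKM of Acsl1, Acsl3, Acsl4 and Acsl5, Acsl1 made up 79.8% ± 1.73 in SCL-treated livers, 81.5% ± 2.35 on the high-fat diet and 80.6% ± 2.98 on the normal diet (SD, n = 3 each). Acsl5 made up 11.2%, 4.55% and 11.1% in SCL-treated livers, and 10.5%, 8.35% and 4.16% in high-fat livers. It made up 9.74%, 12.7% and 8.73% in normal diet livers. The 2 libraries over 40% mitochondrial thus had the lowest Acsl5 shares of the 9.

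Acsl3 held a small share, 0.335%, 0.539% and 0.524% in SCL-treated livers, and 0.423%, 0.456% and 0.270% in high-fat livers. In normal diet livers it held 0.864%, 0.617% and 0.627%. All 6 of these SCL-treated and high-fat libraries lay below all normal diet libraries. The two-sided exact permutation p against the normal diet was 0.1 for either group, and 3 against 3 libraries can give no smaller one (0.42 adjusted over 21 share tests).

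Among Slc27a1, Slc27a2 and Slc27a4, Slc27a2 held 98.7% ± 0.10 in SCL-treated livers, 98.5% ± 0.63 on the high-fat diet and 97.7% ± 0.34 on the normal diet (SD, n = 3 each). Slc27a5 is not in this sum, so these are shares of 3 genes and not of the whole family. In normal diet livers Slc27a5 stood at 482, 443 and 184 FPKM, beside 441, 447 and 519 FPKM for Slc27a2. It had 160, 103 and 115 FPKM in high-fat livers, and 227, 172 and 201 FPKM in SCL-treated livers. Slc27a1 held 0.919%, 0.958% and 0.926% in SCL-treated livers, and 1.56%, 0.770% and 0.677% in high-fat livers. In normal diet livers Slc27a1 held 1.97%, 1.65% and 1.49%. In this share the SCL-treated libraries lay below the normal diet ones (two-sided exact permutation p = 0.1, 0.42 adjusted). The high-fat diet libraries overlapped with the normal diet ones (p = 0.2, 0.63 adjusted, by the same exact test). SCL-treated shares also lay above the normal diet ones for Slc27a2 and below them for Slc27a4 (exact permutation p = 0.1, 0.42 adjusted, for each). In CPM Slc27a1 overlapped between SCL-treated and normal diet livers, with a log2 fold change of -0.16 (SE 0.27).

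**Figure D5:**
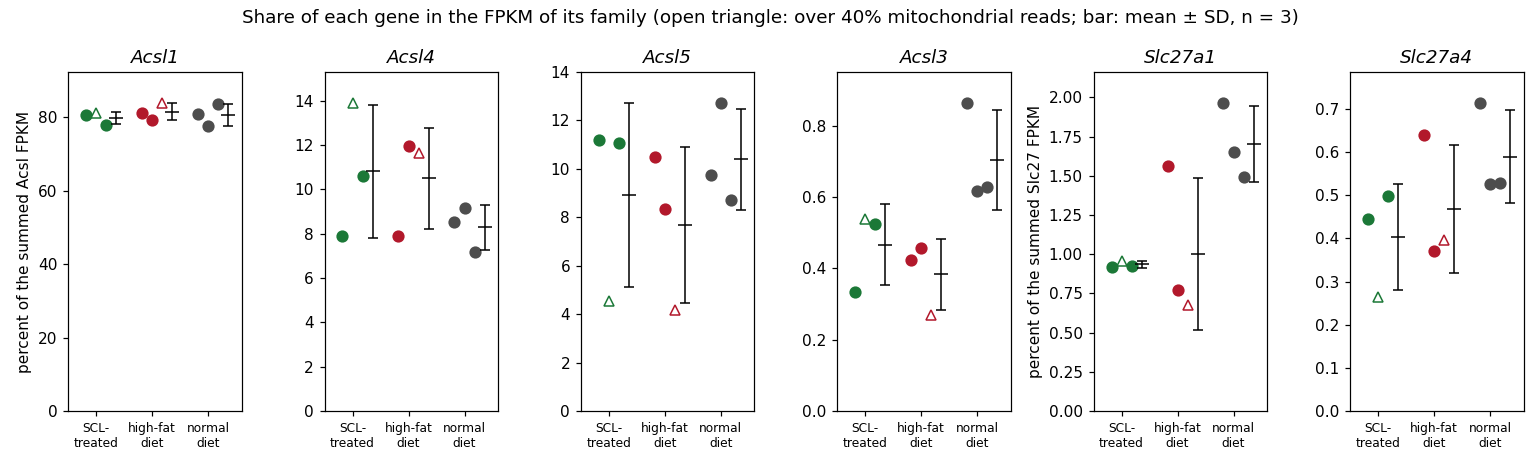
Percent of the summed FPKM of the 4 Acsl genes (first 4 panels) and of the 3 Slc27 genes (last 2 panels) held by single genes, in the SCL-treated, high-fat diet and normal diet libraries; points are libraries, bars mean ± SD (n = 3), open triangles the libraries over 40% mitochondrial. Acsl3 lies at 0.617% or more in normal diet libraries and at 0.539% or less in the other 6.

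Other genes of fatty acid handling were read from a list of 52, of which 46 were in both tables and 42 were tested. By edgeR 0 were called in any comparison. At an unadjusted p under 0.05, 1 was higher and 3 were lower for high-fat against normal diet, 2 and 1 with SCL against the high-fat diet, and 2 and 3 with SCL against the normal diet. Over all genes 2.77% were higher and 1.55% lower in the first of these comparisons, 0.615% and 1.34% in the second, and 3.32% and 3.55% in the third. The medians were -0.096, 0.049 and -0.13 in that order, beside 0.034, -0.031 and 0.026 over all genes. Slc27a5, the liver transport protein that also activates bile acids, had 512.0, 481.2 and 522.9 CPM in SCL-treated livers, and 300.1, 251.9 and 296.7 CPM in high-fat livers. In normal diet livers it had 1022, 900.1 and 427.9 CPM.

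Slc27a5 was thus lower in all high-fat diet libraries than in any SCL-treated or normal diet library. Its log2 fold change was -1.47 for high-fat against normal diet (SE 0.35, edgeR adjusted p = 0.61), which DESeq2 called (-1.48, adjusted p = 0.011), as did limma-voom (-1.68, adjusted p = 0.038). It was 0.84 (SE 0.35, edgeR adjusted p = 1.00) for SCL-treated against high-fat livers and -0.63 for SCL-treated against normal diet (SE 0.35, edgeR adjusted p = 0.67).

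Dbi, which encodes the acyl-CoA binding protein, had 94.8, 130.3 and 68.5 CPM in high-fat livers, and 166.8, 238.8 and 175.5 CPM in normal diet livers, a log2 fold change of -0.98 (SE 0.39, edgeR adjusted p = 0.91). Without the libraries over 40% mitochondrial it was -0.79. With SCL it had 159.4, 71.7 and 195.5 CPM, and its lowest SCL-treated and high-fat diet libraries were the 2 over 40% mitochondrial. Cpt1a, which hands acyl groups to carnitine for entry into mitochondria, averaged 249.7 ± 62.5 CPM with SCL, 365.9 ± 165.1 CPM on the high-fat diet and 604.3 ± 226.9 CPM on the normal diet (SD, n = 3 each). Its log2 fold change was -1.28 for SCL-treated against normal diet (SE 0.45, edgeR adjusted p = 0.66), where limma-voom called it (-1.55, adjusted p = 0.043), and -0.72 for high-fat against normal diet (SE 0.44). Fabp4, the binding protein of fat cells, stayed at 4.69 CPM or less in every library.

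Of 12 regulators tested, edgeR called 0 in any comparison. At an unadjusted p under 0.05, 2 were higher and 1 was lower for high-fat against normal diet, 0 in either direction with SCL against the high-fat diet, and 0 and 2 with SCL against the normal diet. The shares of all genes were 2.77% higher and 1.55% lower, 0.615% and 1.34%, and 3.32% and 3.55% in that order. The regulators under 0.05 were Pparg, Ppargc1a and Srebf1 for high-fat against normal diet, and Ppargc1a and Rxra for SCL-treated against normal diet. Log2 fold changes of the 12 ran from -2.55 to 2.21 and from -2.34 to 1.70 in these comparisons, so Pparg and Ppara were not the extremes. Pparg, the PPAR form that favours lipid storage, had 7.58, 5.50 and 4.78 CPM in high-fat livers, and 3.72, 2.48 and 2.096 CPM in normal diet livers. The groups did not overlap, and the log2 fold change of 1.11 (SE 0.41, edgeR adjusted p = 0.91) did not pass. Ppara, the main PPAR form of hepatocytes, had 30.6, 3.85 and 10.7 CPM in high-fat livers, and 15.4, 9.62 and 3.04 CPM in normal diet livers. It spanned 10.1-fold over the 9 libraries and overlapped between groups, with a log2 fold change of 0.69 (SE 0.73) that turned to -0.38 without high-fat diet replicate 1.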

How the data were processed

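Per the labels' protocols, liver RNA was isolated with Trizol before library construction with NEBNext Ultra reagents. The authors deposited 2 tables, which per the file headers hold raw read counts per gene, FPKM, log2 fold changes with p-values and adjusted p-values, and, from the values, a normalized signal (each count over its library's size factor, not used here). DESeq2 and mm9, a mouse build, are named in the submitters' processing notes. The build was not taken as that of these rat counts. The aligner, counter and strand setting were not stated, so reads shared between close family members are uncertain.

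Counts of the 15565 genes in both tables were tested with edgeR 4.0.16 (R 4.3.3) by the quasi-likelihood test. A single model of all 9 libraries held only the group (6 residual degrees of freedom), after filterByExpr (minimum count 10) and TMM. P-values were two-sided, adjusted over 12041 genes by Benjamini-Hochberg and called under 0.05. The standard error is the absolute log2 fold change over the square root of F. DESeq2 1.42.0 and limma 3.58.1 (voom with quality weights) were alternatives. Dividing counts by the deposited FPKM gave 1 length per gene. High-fat diet counts were the same in both tables. No pair of libraries within a group agreed within sampling noise (chi-square per degree of freedom 38.5 or more, genes over 20 reads). Counting error weighs most on Cd36, Acsl3 and Acsf2, whose lowest libraries held the fewest reads.

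Members, lists and the rule for named genes (all 10 members, 6 set genes and any gene called by edgeR on the lists) were chosen with earlier results of these data known. Regulators at an unadjusted p under 0.05 by edgeR are named besides these. Promoter windows were read from RefSeq tables (GRCr8). Python 3.11.15, pandas 2.3.3 and matplotlib 3.10.9 were used.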

Additional observations from a re-analysis of the deposited data

How the results depend on the processing

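Directions of Acsf2, Acsl3 and Slc27a1 for high-fat against normal diet, and of Acsf2, Acsl3, Slc27a2 and Cd36 for SCL-treated against normal diet, were kept under 11 alternatives and in 9 fits that each left out 1 library. Acsf2 ran from -2.65 to -1.68 and from -2.81 to -1.85 in those 9 fits. EdgeR called 0 of the 10 genes in every alternative. DESeq2 called 1 for high-fat against normal diet and 1 for SCL-treated against normal diet, and limma-voom called 1 for SCL-treated against normal diet, Acsf2 each time. The number of all genes called for high-fat against normal diet was 50 by DESeq2, 26 by limma-voom and 1 by edgeR. The cause was not tested.

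The median of the 10 for high-fat against normal diet moved to 0.076 with the mitochondrial share as covariate and ran from -0.41 to -0.049 with 1 library left out. For SCL-treated against normal diet it moved to -0.41 with library totals alone, where the median of all genes was -0.21, and to 0.066 with the covariate, and ran from -0.21 to 0.065. For SCL-treated against high-fat diet it ran from -0.068 to 0.14.

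Signs turned where estimates were smaller than or close to their standard errors. For high-fat against normal diet the covariate gave Acsl1 0.072 and Acsl5 0.18, removal of the libraries over 40% mitochondrial gave Slc27a4 -0.058, and limma-voom gave Ppara -0.50. For SCL-treated against high-fat diet Acsl1 stood at 0.0016 with DESeq2, at 0.0016 with its size factors, at 0.024 without mitochondrial transcripts, at 0.058 without the libraries over 40% and at 0.22 with limma-voom. Slc27a4 stood at 0.014 without mitochondrial transcripts, at 0.21 without those libraries and at 0.055 with limma-voom. Acsl4 stood at -0.099 with library totals and -0.049 with limma-voom. Without those libraries Fabp1 stood at 0.031 and Slc27a1 at -0.0077, and limma-voom gave Slc27a2 -0.079 and Acsf2 0.10. For SCL-treated against normal diet library totals gave Slc27a4 -0.15, Acsl4 -0.097 and Fabp4 -0.0043. The covariate gave Acsl1 0.061, Acsl5 0.40 and Fabp4 -0.15. Without the libraries over 40% Fabp1 stood at 0.033 and Acsl5 at 0.080, and limma-voom gave Acsl4 -0.027.

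With 1 library left out, values for high-fat against normal diet ran from -0.44 to 0.79 for Cd36, from -0.14 to 0.47 for Fabp1, from -0.060 to 0.19 for Slc27a4, from -0.090 to 0.19 for Acsl4 and from -0.38 to 1.24 for Ppara. For SCL-treated against high-fat diet they ran from -0.035 to 0.45 for Slc27a2, from -0.18 to 0.13 for Slc27a4, from -0.13 to 0.19 for Acsl1, from -0.017 to 0.55 for Acsl3, from -0.079 to 0.22 for Acsl4, from -0.10 to 0.80 for Acsl5 and from -0.47 to 0.052 for Acsf2. For SCL-treated against normal diet they ran from -0.52 to 0.040 for Fabp1, from -0.100 to 0.17 for Slc27a4, from -0.0094 to 0.29 for Acsl4, from -0.63 to 0.090 for Acsl5 and from -0.068 to 0.44 for Fabp4. Differences in family shares moved by less than 1 SD under each alternative run.

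No pairing of libraries by replicate number was seen. Same-numbered libraries do not all share a number in their titles, so this cannot show whether livers were paired in another way. Correlations of same-numbered libraries' deviations ran from -0.35 to 0.60, and not every library correlated best with its own number. A fit with the replicate block called 0 of the 10 genes in each comparison and gave Acsf2 -2.24 for high-fat against normal diet, -2.28 for SCL-treated against normal diet and Acsl1 0.0055 for SCL-treated against high-fat diet.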
